A study of Mus musculus with 6 samples.

Results

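The genes described here are 9 genes of the beta-adrenergic and cAMP pathway of adipocytes, namely *Adrb1*, *Adrb3*, *Gnas*, *Adcy3*, *Adcy6*, *Prkaca*, *Prkar2b*, *Pde3b* and *Pde4d*. They were taken by their symbols from a table that holds 52089 symbols, and all 9 were found in it. The cells were primary brite adipocytes, that is, thermogenic adipocytes that arise in white fat, grown from the stromal-vascular fraction of inguinal white adipose tissue of 129SvEv mice. All cultures were induced for 2 days in a medium with insulin, T3, indomethacin, dexamethasone, rosiglitazone and IBMX, an inhibitor of phosphodiesterases, and then kept in insulin, T3 and rosiglitazone. On day 1 of differentiation the cells were transfected with 50 nM of a locked nucleic acid antisense oligonucleotide. In 3 libraries it was directed against the long noncoding RNA *Ctcflos* (*Ctcflos* KD), and in 3 libraries it was a nontargeting control oligonucleotide (NC ctrl). Total RNA was harvested 24 h later, so that the libraries hold the RNA of differentiating cells from 1 strain and 1 time point. No library of cells given an adrenergic agonist was analysed here.

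In adipocytes, noradrenaline from sympathetic nerves binds beta-adrenergic receptors, which act through the stimulatory G protein on adenylyl cyclases. The cAMP made by these enzymes binds the regulatory subunits of protein kinase A and sets free the catalytic subunits, which phosphorylate proteins of the lipid droplet and of transcription. Phosphodiesterases end the signal by cleaving cAMP. In brown and brite adipocytes this chain is known for driving lipolysis, heat production by UCP1 and transcription of thermogenic genes, and PDE3B is known as the phosphodiesterase through which insulin restrains lipolysis.

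Expression is given as RPKM, that is, reads scaled to the length of the transcript and to the mapped reads of the library, as the mean over all transcript accessions of a symbol. *Ctcflos*, which is listed as 1300015D01Rik and lies on chr2:173110818-173133204 of the plus strand (GRCm38), had 0.097, 0.070 and 0.210 RPKM in *Ctcflos* KD and 0.748, 0.751 and 0.840 RPKM in NC ctrl. These are 12.4%, 9.04% and 26.9% of the control mean in the KD libraries. The log2 fold change of RPKM + 1 was -0.66 (SE 0.084, limma-trend without a filter, adjusted p = 0.025). *Ctcflos* KD replicate 3 thus kept the most *Ctcflos* RNA, and it also deviated most from its group, with a root mean square deviation of 0.246 on the log2 scale over all genes tested against 0.107 to 0.199 in the other libraries. Depth ranged from 60.8 to 79.2 mio mapped reads. The adipocyte markers *Adipoq* and *Fabp4* were abundant in every library. The summed RPKM of 7 adipocyte markers was 4643 to 6125 in *Ctcflos* KD and 6275 to 6960 in NC ctrl, with *Fabp4* as the greater part of it, and none of the 7 passed the test (limma-trend, 4 of 7 at an unadjusted p under 0.05).

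The members covered a wide range of levels. In NC ctrl the mean RPKM was 37.0 for *Prkar2b*, 33.3 for *Gnas* and 32.6 for *Pde3b*, and the libraries of these 3 genes overlapped. *Adrb3* followed with 16.5 and *Adcy6* with 14.4 RPKM, again with overlap between them. *Prkaca* came next with 9.0 RPKM, which lay apart from its neighbours in these means over accessions. *Adcy3* had 1.07 and *Pde4d* 0.877 RPKM, which overlapped, and *Adrb1* was lowest with 0.360 RPKM. In *Ctcflos* KD, *Gnas* stood first with 41.7 RPKM, before *Prkar2b* with 27.0 and *Pde3b* with 19.1 RPKM. These are means over accessions of different length, and single accessions of a gene lie above or below them. The order depended on this averaging. On RefSeq mRNA accessions alone, *Prkaca* had 14.4 RPKM in NC ctrl, above *Adcy6* with 11.6 RPKM. There its libraries overlapped those of *Adrb3*, which had 17.0 RPKM.

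**Figure D1:**
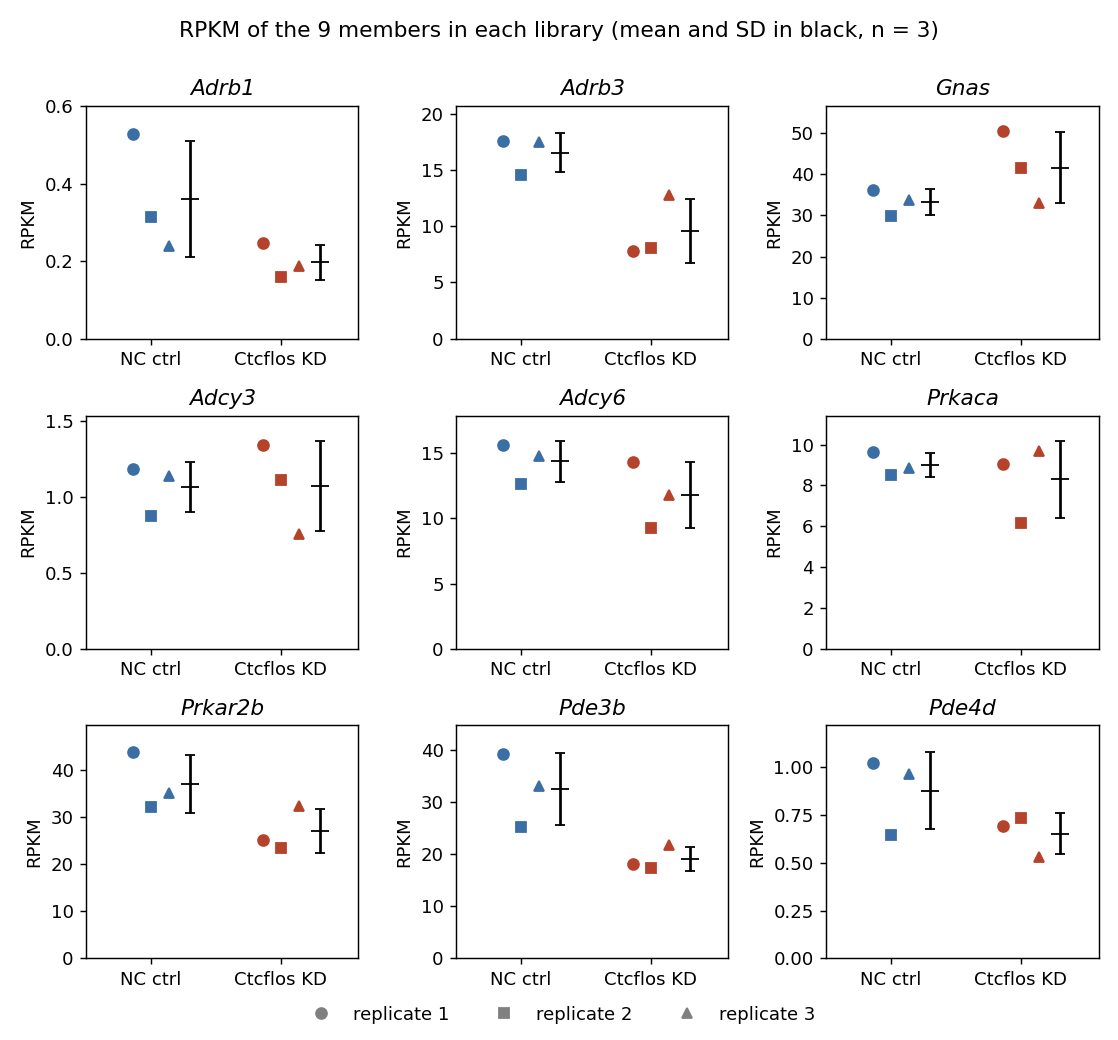
RPKM of the 9 genes in the 3 NC ctrl libraries (blue) and the 3 *Ctcflos* KD libraries (red), 1 panel per gene with its own axis from 0. Symbols mark the replicate number, and black bars give the mean and SD. The groups do not overlap for *Adrb3* and *Pde3b* and overlap for the other genes.

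Of the 9 members, 7 had a mean of at least 1 RPKM over the 6 libraries and were tested among 11701 genes. *Adrb3* and *Pde3b* were lower in *Ctcflos* KD, and no member was called higher. The 2 called members are 28.6% of the 7 tested, against a background of 24.0% of all genes tested in either direction and 12.4% in the lower direction, so that the share of members called was near that of all genes. The median log2 fold change of the 7 was -0.28, beside 0.03 over all genes tested. When *Ctcflos* KD replicate 3 was left out, 4 members were called, with *Prkar2b* lower and *Gnas* higher beside the former 2. The number of called members was 0 when NC ctrl replicate 1 or 3 or *Ctcflos* KD replicate 1 or 2 was left out.

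*Adrb3* encodes the beta-3 adrenergic receptor, the main beta receptor of rodent adipocytes, and lies on chr8:27225776-27250616 of the minus strand. It had 7.75, 8.04 and 12.8 RPKM in *Ctcflos* KD and 17.6, 14.5 and 17.5 RPKM in NC ctrl. All KD libraries lay below all controls, as in 21.9% of all genes tested (in 22.9% all lay above), and KD replicate 3 was the closest to them with 77.5% of the control mean, against 46.9% and 48.6% in the others. The mean was 9.53 ± 2.84 against 16.5 ± 1.71 RPKM (SD, n = 3), or 57.7% of control. The log2 fold change was -0.76 (SE 0.186, 95% interval -1.19 to -0.33, limma-trend, adjusted p = 0.024). Without KD replicate 3 the log2 fold change was -0.97 (adjusted p = 0.001). The call was lost without KD replicate 1 (adjusted p = 0.077), KD replicate 2 (0.082), NC ctrl replicate 1 (0.096) or NC ctrl replicate 3 (0.095), while the log2 fold change stayed between -0.97 and -0.64 under all 6 omissions.

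In the bulk RNA, fewer cells of a type and less RNA per cell cannot be told apart. Per 1000 RPKM of the adipocyte markers, *Adrb3* had 1.67, 1.45 and 2.09 RPKM in *Ctcflos* KD and 2.56, 2.32 and 2.51 RPKM in NC ctrl, a measure chosen after the values were seen and set mostly by *Fabp4* (exact permutation p = 0.1, the smallest that 3 libraries against 3 allow). The part of adipocyte number in the lower *Adrb3* values was not tested. Each of the 4 accessions of *Adrb3* was lower in *Ctcflos* KD, with log2 fold changes from -0.81 to -0.73, beside 14.7% of all 67403 accessions tested that were called lower and 26.0% called in either direction. They share reads and are not independent. The Ensembl transcript ENSMUST00000117565 held 641, 692 and 844 reads in *Ctcflos* KD and 1627, 1321 and 1260 reads in NC ctrl. An antisense gene, Gm45470, overlaps *Adrb3*, and reads of the pair may not be separated, since it is not given whether the counting used the strand.

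*Adrb1*, the beta-1 receptor, was far less abundant than *Adrb3* in every library. It lies on chr19:56722199-56733113 of the plus strand and had 0.247, 0.158 and 0.189 RPKM in *Ctcflos* KD and 0.528, 0.314 and 0.240 RPKM in NC ctrl. The groups overlapped by 1 library, and the log2 fold change of RPKM + 1 was -0.18 (95% interval -0.39 to 0.03, limma-trend without a filter, adjusted p = 0.29). At this level the added 1 compresses the change, and the plain ratio of means was 54.9% of control. On the RefSeq accession NM_007419 alone the groups did not overlap, with 0.245, 0.209 and 0.244 RPKM against 0.458, 0.299 and 0.319 RPKM (exact permutation p = 0.1). Of the 3 accessions of *Adrb1*, 2 had every KD library below every control, and in AK039569 the groups overlapped. Of all genes below the filter with any value above 0, 9.01% had every KD library below every control.

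Of 9 adrenergic receptor genes in the table, 2 were tested, *Adrb3* and *Adra1d*, of which the latter had 1.78 against 1.85 RPKM (log2 fold change -0.05, adjusted p = 0.82). Among the genes below the filter, *Adra1a*, an alpha-1 receptor that signals through Gq, fell from 1.34 to 0.402 RPKM (log2 fold change -0.74, adjusted p = 0.028 in the fit without a filter, in which 4.71% of 38335 genes were called and 2.76% called lower). *Adra2a*, an alpha-2 receptor that inhibits adenylyl cyclase, had 0.214, 0.284 and 0.0720 RPKM against 0.0354, 0.0350 and 0.0891 RPKM, and the groups overlapped (adjusted p = 0.17). Genes of receptor desensitisation moved in both directions. *Arrb1*, which encodes beta-arrestin 1, fell from 3.58 to 1.52 RPKM (log2 fold change -0.85, adjusted p = 0.0099), and the receptor kinase gene *Grk5* from 1.36 to 0.787 RPKM (-0.40, 0.019). *Adrbk1*, the gene of the beta-adrenergic receptor kinase GRK2, rose from 1.26 to 1.95 RPKM (0.38, 0.022). The other 2 of the 5 tested genes of this list, *Grk6* and *Arrdc3*, were not called, with log2 fold changes of 0.00 and 0.10. The share called was 60.0% of these 5, beside 24.0% of all genes tested.

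*Gnas* encodes the alpha subunit of the stimulatory G protein and lies in an imprinted locus with several alternative first exons, on chr2:174284320-174346744 of the plus strand, 1151 kb from the end of *Ctcflos*. The antisense gene *Nespas* overlaps it. It had 50.5, 41.5 and 33.0 RPKM in *Ctcflos* KD and 36.2, 29.8 and 33.9 RPKM in NC ctrl. KD replicates 1 and 2 lay above all controls and KD replicate 3 among them. The log2 fold change was 0.30 (95% interval -0.09 to 0.69, limma-trend, adjusted p = 0.23). Without KD replicate 3 it was 0.45 (adjusted p = 0.040). All 27 of its 40 accessions that passed the filter had positive log2 fold changes, from 0.22 to 0.37, and none of them was called with all 6 libraries (limma-trend, 3 at an unadjusted p under 0.05). Without KD replicate 3, 24 accessions of *Gnas* were called.

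To show what separates the starts of *Gnas* transcripts, the 250 bases before the first and before the last of its RefSeq start sites are printed (RefSeq, GRCm38.p6, plus strand). The first, at chr2:174284070-174284319, precedes the start of the *Nesp* transcript, and the last, at chr2:174329756-174330005, the start of the transcript for the Gs alpha subunit. Capitals mark, on either strand, the GC box GGGCGG, the TATA box TATAAA and the core TGACG of the cAMP response element.
*Gnas* first start: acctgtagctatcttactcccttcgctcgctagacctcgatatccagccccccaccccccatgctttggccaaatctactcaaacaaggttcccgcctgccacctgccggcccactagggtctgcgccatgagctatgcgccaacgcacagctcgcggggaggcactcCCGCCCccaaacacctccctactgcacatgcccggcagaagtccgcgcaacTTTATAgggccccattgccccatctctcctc
*Gnas* last start: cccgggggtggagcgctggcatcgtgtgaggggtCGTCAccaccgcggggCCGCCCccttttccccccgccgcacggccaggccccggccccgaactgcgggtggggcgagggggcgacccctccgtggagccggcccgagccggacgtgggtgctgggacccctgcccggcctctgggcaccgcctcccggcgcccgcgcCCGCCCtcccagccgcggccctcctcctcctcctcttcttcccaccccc
The first window holds 1 GC box and 1 TATA box in 61.6% GC with 14 CpG. The last holds 2 GC boxes and 1 TGACG in 80.0% GC with 29 CpG, and no TATA box. RPKM values do not resolve the use of these starts, because transcripts that start apart share nearly all of their reads. The Ensembl transcript ENSMUST00000087871, with its start at 174327768, held 19734, 16212, 10554, 14846, 12328 and 11143 reads over the KD and then the control libraries. ENSMUST00000109085, with its start at 174330006, held 19684, 16186, 10516, 14813, 12301 and 11124 reads.

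Other G protein genes were called in both directions. Of 21 such genes, 16 were tested, 1 rose and 3 fell. The share of these 16 that was called was near that of all genes tested, 24.0% in either direction. *Gng2*, *Gnb5* and *Gng12*, which encode gamma and beta subunits, fell by 0.88, 0.62 and 0.57 on the log2 scale (adjusted p = 0.017, 0.012 and 0.023). *Gng10*, another gamma subunit gene, rose from 20.9 to 27.8 RPKM (log2 fold change 0.40, adjusted p = 0.047). The genes of the inhibitory alpha subunits were not called, and *Gnai2* had 20.8 against 15.8 RPKM (0.37, 0.071).

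*Adcy6*, an adenylyl cyclase inhibited by calcium, was the most abundant adenylyl cyclase and lies on chr15:98589973-98610076 of the minus strand, where the antisense gene Gm29331 overlaps it. It had 14.3, 9.25 and 11.8 RPKM in *Ctcflos* KD and 15.7, 12.6 and 14.8 RPKM in NC ctrl. The groups overlapped through KD replicate 1, and the log2 fold change was -0.28 (95% interval -0.66 to 0.10, adjusted p = 0.24, limma-trend). *Adcy3*, an adenylyl cyclase known from adipose tissue and olfactory neurons, lies on chr12:4133103-4213525 of the plus strand and overlaps *Cenpo* on the other strand. It had 1.34, 1.11 and 0.756 RPKM in *Ctcflos* KD and 1.19, 0.875 and 1.13 RPKM in NC ctrl. All controls lay within the range of the KD libraries, the log2 fold change was -0.003 (95% interval -0.30 to 0.29, adjusted p = 0.99), and its sign changed with the choice of accessions and libraries.

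*Adcy5*, which like *Adcy6* encodes a calcium-inhibited cyclase, had 1.33, 0.870 and 2.12 RPKM in *Ctcflos* KD and 3.42, 2.81 and 2.71 RPKM in NC ctrl and fell by 0.73 on the log2 scale (adjusted p = 0.024, limma-trend). *Adcy9*, with a mean just under the filter, had 0.364, 0.286 and 0.532 RPKM against 1.58, 1.51 and 1.48 RPKM (log2 fold change -0.86, adjusted p = 0.021 without a filter). For both genes every KD library lay below every control, as in 21.9% of all genes tested and 9.01% of the genes below the filter with any value above 0. *Adcy7*, known from blood cells, had 1.14, 0.818 and 1.04 RPKM against 0.334, 0.754 and 0.349 RPKM and did not pass the test (0.44, 0.11). Both *Adcy5* and *Adcy9* kept their call with KD replicate 3 left out and lost it with any other single library left out. The summed RPKM of the 10 adenylyl cyclase genes was 18.8, 12.5 and 16.5 in *Ctcflos* KD and 22.6, 18.9 and 20.9 in NC ctrl (exact permutation p = 0.1), a sum chosen after the values were seen. *Adcy6* made up 73.8% ± 2.63 of it in *Ctcflos* KD and 68.9% ± 2.07 in NC ctrl (p = 0.1 by exact permutation, SD, n = 3), and *Adcy3* 6.88% ± 2.17 and 5.10% ± 0.423 (exact permutation p = 0.4).

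**Figure D2:**
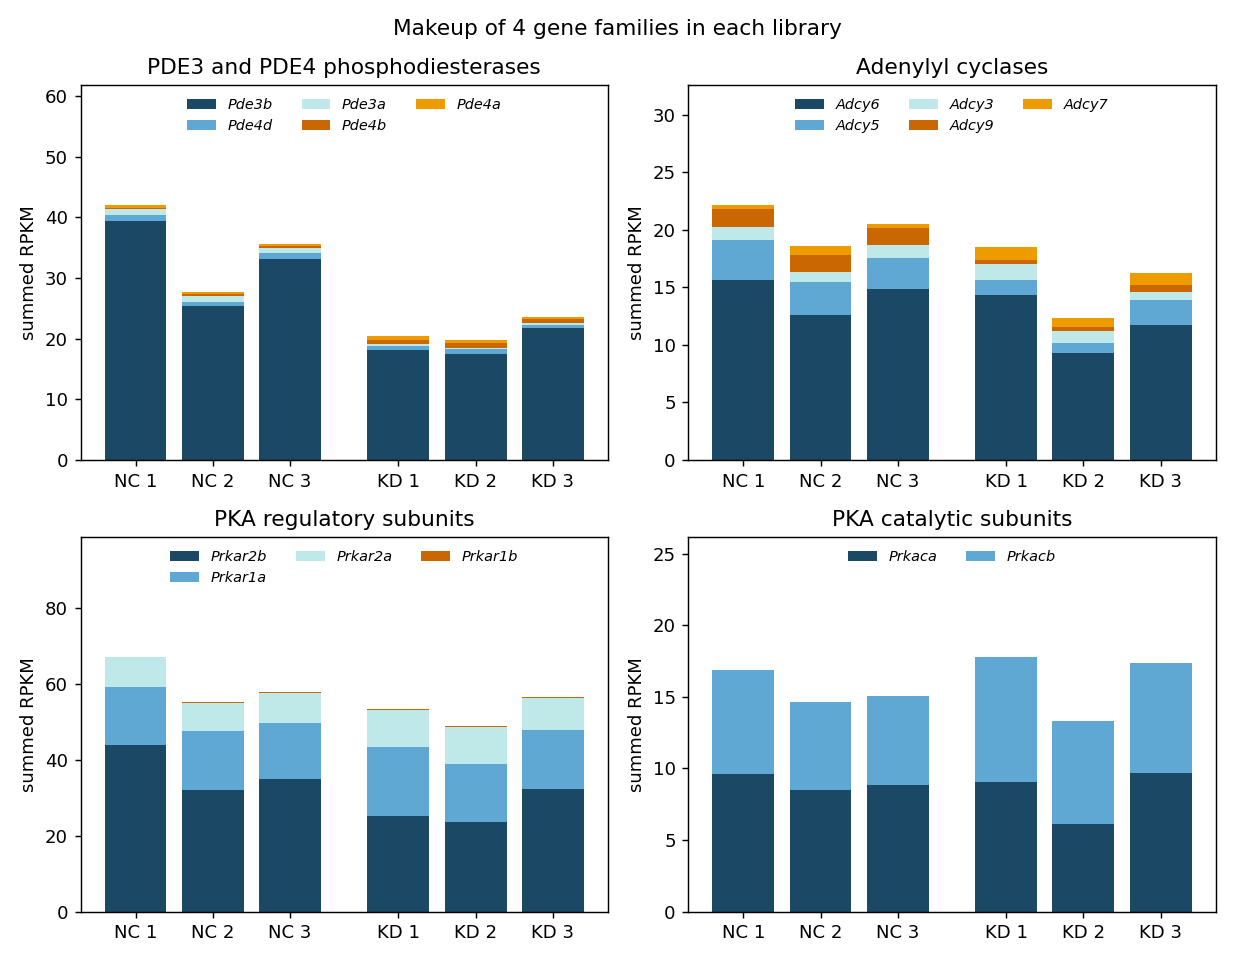
Summed RPKM of 5 genes of the PDE3 and PDE4 phosphodiesterases, the 5 most abundant adenylyl cyclases and the regulatory and catalytic subunits of protein kinase A in each NC ctrl (NC) and *Ctcflos* KD (KD) library, stacked by gene. *Pde3b*, *Adcy6* and *Prkar2b* form the largest parts of their families in NC ctrl, and *Prkar2b* is 47.3% to 57.2% of the regulatory subunits in *Ctcflos* KD against 58.1% to 65.3% in NC ctrl.

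*Prkaca* encodes a catalytic subunit of protein kinase A and lies on chr8:83972993-83996443 of the plus strand. It had 9.04, 6.15 and 9.70 RPKM in *Ctcflos* KD and 9.64, 8.50 and 8.87 RPKM in NC ctrl. KD replicate 2 was the lowest library and KD replicate 3 the highest, and the log2 fold change was -0.13 (95% interval -0.49 to 0.24, limma-trend, adjusted p = 0.59). Without KD replicate 2 its sign turned (0.05, adjusted p = 0.77). The second catalytic subunit gene, *Prkacb*, had 7.87 against 6.52 RPKM (0.24, adjusted p = 0.16).

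*Prkar2b* encodes the RII beta regulatory subunit, the main regulatory subunit of protein kinase A in adipose tissue, and lies on chr12:31958476-32061296 of the minus strand. It had 25.2, 23.5 and 32.3 RPKM in *Ctcflos* KD and 43.8, 32.0 and 35.0 RPKM in NC ctrl. The groups overlapped only through KD replicate 3 and NC ctrl replicate 2, which lay within 1 RPKM of each other. The mean was 73.1% of control with a log2 fold change of -0.44 (95% interval -0.83 to -0.05), which did not pass the threshold (limma-trend, adjusted p = 0.091). Without KD replicate 3 it was -0.57 (adjusted p = 0.022), and with a weight estimated for each library -0.55 (adjusted p = 0.024). All 7 accessions had log2 fold changes from -0.46 to -0.41, and 2 of them were called, ENSMUST00000003079 (adjusted p = 0.034) and AK011647 (0.037). Over all accessions tested, 14.7% were called lower. The level depended on the accession, with a range from 7.76 to 53.5 RPKM in the mean over the 6 libraries, while the fold change did not.

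For *Prkaca* and *Prkar2b*, which encode subunits that bind each other in the kinase, 1 of the 2 windows of each gene is printed, the 1 farthest upstream. The windows are the 250 bases before a RefSeq start site (RefSeq, GRCm38.p6), at chr8:83972728-83972977 of the plus strand and at chr12:32061278-32061527 of the minus strand, 5′ to 3′ in the direction of transcription, with the same motifs in capitals.
*Prkaca*: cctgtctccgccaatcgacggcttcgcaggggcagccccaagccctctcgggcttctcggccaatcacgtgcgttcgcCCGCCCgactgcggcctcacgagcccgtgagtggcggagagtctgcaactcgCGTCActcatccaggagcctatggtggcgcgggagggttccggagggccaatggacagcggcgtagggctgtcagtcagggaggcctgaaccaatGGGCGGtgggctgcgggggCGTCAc
*Prkar2b*: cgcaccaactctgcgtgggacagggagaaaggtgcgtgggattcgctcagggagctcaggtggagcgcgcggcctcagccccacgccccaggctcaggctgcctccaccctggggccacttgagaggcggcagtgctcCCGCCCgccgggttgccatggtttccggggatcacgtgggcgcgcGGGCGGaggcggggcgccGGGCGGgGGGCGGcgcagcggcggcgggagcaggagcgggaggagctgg
The printed *Prkaca* window holds 2 GC boxes and 2 copies of TGACG, and the *Prkar2b* window 4 GC boxes and no TGACG. The windows not printed, at chr8:83976633-83976882 and chr12:32060590-32060839, hold none of these motifs. Windows were found for 6 of the 9 members, *Adrb1*, *Adcy3*, *Gnas*, *Pde4d*, *Prkaca* and *Prkar2b*, with 12 windows in all, of which 2 of *Gnas* overlap. The full cAMP response element TGACGTCA, which contains TGACG, was in 0 of the 12 and in 1.55% of all 32851 windows of this length. TGACG was in 5 of the 12 and in 17.8% of all windows, GGGCGG in 6 and in 32.7%, and TATAAA in 3, all of *Gnas*, and in 12.4%. These are matches of letters on either strand and not sites of binding.

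The makeup of the kinase subunits was compared within each library. The ratio of *Prkar2b* to *Prkaca* RPKM was 2.79, 3.82 and 3.33 in *Ctcflos* KD and 4.55, 3.77 and 3.94 in NC ctrl (exact permutation p = 0.2), with overlap. *Prkar2b* as a share of the 4 regulatory subunits was 47.3%, 48.0% and 57.2% in *Ctcflos* KD and 65.3%, 58.1% and 60.4% in NC ctrl. Every KD library lay below every control, with KD replicate 3 within 1 percentage point of the lowest (exact permutation p = 0.1, the smallest possible). The other regulatory subunits were not called and had positive estimates, with 16.3 against 15.2 RPKM for *Prkar1a* (0.10, adjusted p = 0.54), 9.32 against 7.77 RPKM for *Prkar2a* (0.23, adjusted p = 0.13) and 0.265 against 0.201 RPKM for *Prkar1b* (0.08, adjusted p = 0.43 without a filter). The ratio of all regulatory to both catalytic subunits, chosen after the values were seen, was 3.31 ± 0.345 in *Ctcflos* KD and 3.87 ± 0.107 in NC ctrl (SD, n = 3, exact permutation p = 0.1). Of the 7 genes tested in the list of kinase subunits and inhibitors, 14.3% were called, beside 24.0% of all genes tested. *Pkig*, a protein kinase inhibitor gene, was the 1 called. It fell from 4.08 to 2.44 RPKM (log2 fold change -0.56, adjusted p = 0.0093).

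*Pde3b* encodes the insulin-regulated phosphodiesterase 3B and lies on chr7:114415281-114539251 of the plus strand. It had 18.1, 17.5 and 21.7 RPKM in *Ctcflos* KD and 39.3, 25.4 and 33.1 RPKM in NC ctrl. All KD libraries lay below all controls, as in 21.9% of all genes tested, and the controls spread more widely than the KD libraries. The mean was 19.1 ± 2.30 against 32.6 ± 6.99 RPKM (SD, n = 3), or 58.6% of control, with a log2 fold change of -0.73 (SE 0.174, 95% interval -1.13 to -0.33, limma-trend, adjusted p = 0.023). Without KD replicate 3 the adjusted p was 0.010. The call was lost without KD replicate 1 (adjusted p = 0.069), KD replicate 2 (0.076), NC ctrl replicate 1 (0.092) or NC ctrl replicate 3 (0.091), with log2 fold changes from -0.89 to -0.58 under the 6 omissions.

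All 7 accessions of *Pde3b* were called lower, from -0.77 to -0.59 on the log2 scale, beside 14.7% of all accessions tested. They share reads and are not independent. The Ensembl transcript ENSMUST00000032909, of 6573 bases, held 9718, 9471 and 9487 reads in *Ctcflos* KD and 22376, 14285 and 14978 reads in NC ctrl. Per 1000 RPKM of the adipocyte markers, *Pde3b* had 3.89, 3.16 and 3.55 RPKM in *Ctcflos* KD and 5.72, 4.04 and 4.76 RPKM in NC ctrl (exact permutation p = 0.1). *Pde3b* spans 124 kb and *Prkar2b* 103 kb of genome. Genes of 100 to 200 kb had a median log2 fold change of -0.28 among 676 tested. The median was 0.10 among 3191 genes of 10 to 30 kb, such as *Adrb3* with 24.8 kb. It was 0.08 among 2714 genes under 10 kb and -0.04 among 2594 genes of 30 to 100 kb. Among 244 genes over 200 kb it was -0.57. *Pde4d*, which was below the filter and not among the genes tested, spans 1504 kb. The part of gene length in these results was not tested.

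**Figure D3:**
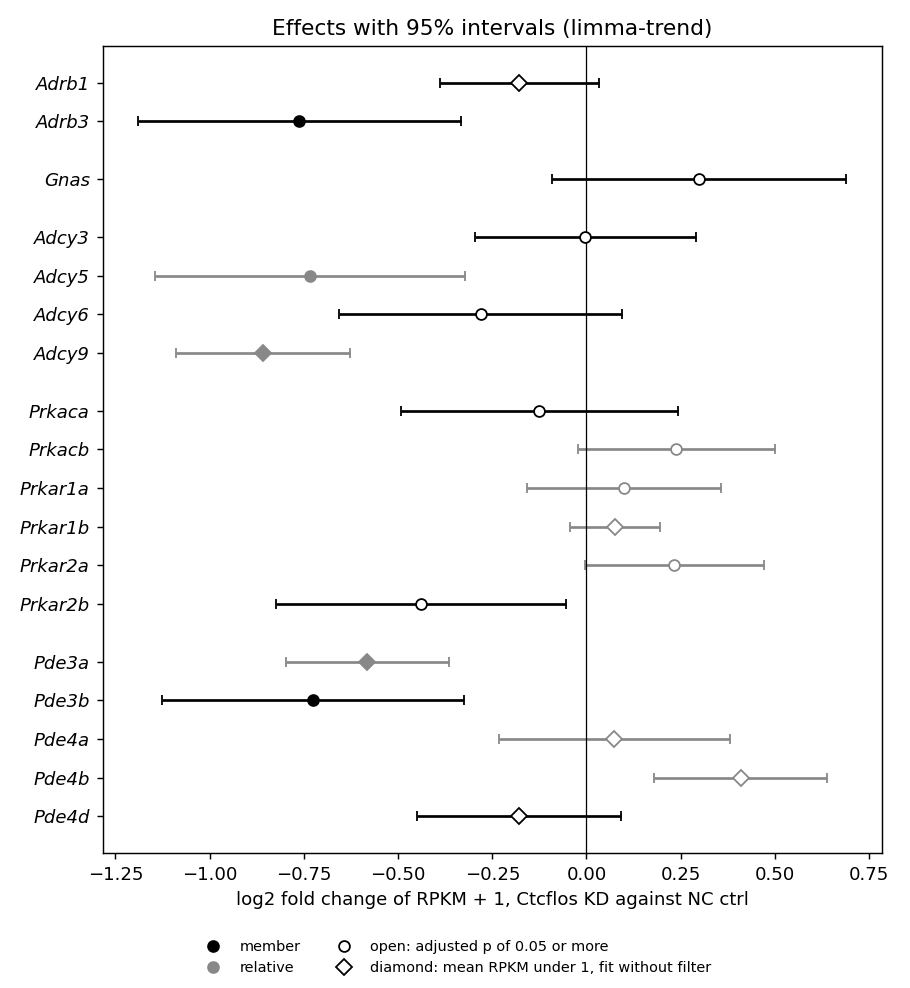
Log2 fold change of RPKM + 1 in *Ctcflos* KD against NC ctrl with its 95% interval (limma-trend) for the 9 members (black) and related genes of the same families (grey), of which *Adcy5* and *Adcy9* are shown because they were called. Filled symbols passed an adjusted p of 0.05, and diamonds are genes below 1 RPKM from the fit without a filter. *Adrb3* at -0.76 and *Pde3b* at -0.73 are the filled members, and *Gnas* has the highest estimate of the members at 0.30.

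*Pde4d*, which encodes a cAMP-specific phosphodiesterase and lies on chr13:108449948-109953461 of the plus strand, was far less abundant than *Pde3b*. It had 0.692, 0.735 and 0.532 RPKM in *Ctcflos* KD and 1.02, 0.646 and 0.963 RPKM in NC ctrl, with overlap (log2 fold change -0.18, 95% interval -0.45 to 0.09, adjusted p = 0.40 without a filter). Of its 27 accessions, 14 passed the filter, with log2 fold changes from -0.43 to -0.14, and none was called (limma-trend, 2 at an unadjusted p under 0.05). The lowest estimate, -0.43, was that of the clone AK140033 (adjusted p = 0.11). The ratio of *Pde3b* to *Pde4d* RPKM was 26.1, 23.8 and 40.9 in *Ctcflos* KD and 38.5, 39.3 and 34.4 in NC ctrl, and KD replicate 3 was the highest library of all (exact permutation p = 0.4).

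Of 16 cAMP phosphodiesterase genes, 5 were tested and 20.0% of these were called, beside 24.0% of all genes tested. The called gene was *Pde3b*. *Pde3a*, its closest relative, had 0.293, 0.195 and 0.371 RPKM in *Ctcflos* KD and 0.945, 0.933 and 0.888 RPKM in NC ctrl, and fell by 0.58 on the log2 scale (adjusted p = 0.029 without a filter). *Pde11a* fell as well, from 0.253 to 0.0443 RPKM (-0.26, adjusted p = 0.028 without a filter). *Pde4b*, which is known to be induced by cAMP, had 0.633, 0.867 and 0.669 RPKM against 0.296, 0.374 and 0.223 RPKM. All its KD libraries lay above all controls, as in 11.8% of the genes below the filter with any value above 0. *Pde4b* did not pass the threshold (0.41, limma-trend without a filter, adjusted p = 0.059). *Pde4a* had 0.520 against 0.432 RPKM (0.07, adjusted p = 0.77). *Pde3b* as a share of the summed phosphodiesterase RPKM, a measure chosen after the values were seen, was 59.7% ± 3.58 in *Ctcflos* KD and 69.0% ± 4.71 in NC ctrl (SD, n = 3, exact permutation p = 0.1).

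**Figure D4:**
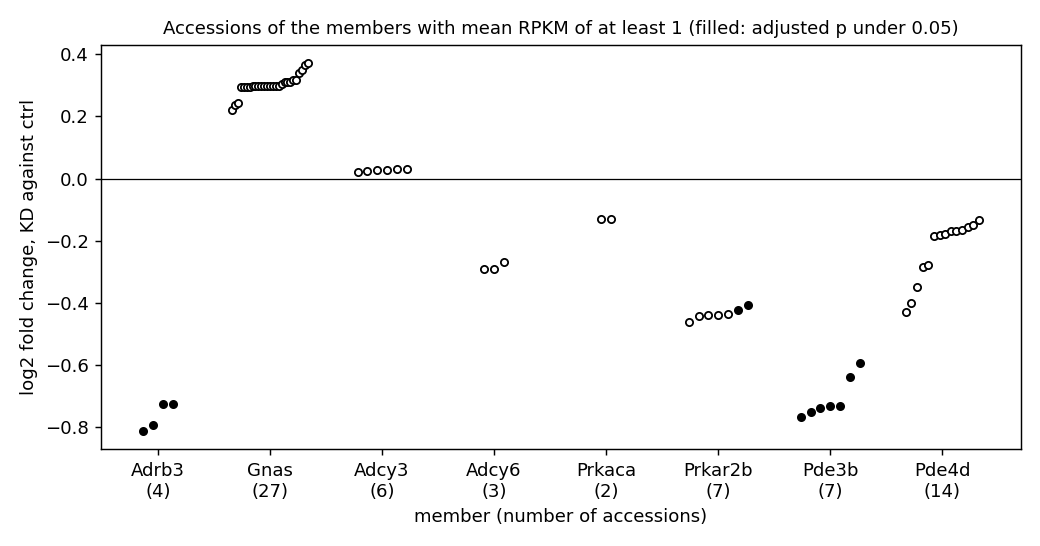
Log2 fold change of RPKM + 1 in *Ctcflos* KD against NC ctrl for each accession with a mean of at least 1 RPKM, grouped by member, with the number of accessions under each name. Filled circles were called at an adjusted p of 0.05. The 4 accessions of *Adrb3* and the 7 of *Pde3b* are all filled, and the 27 of *Gnas* all lie above 0 and are open.

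Among accessions past the filter, those of a member had log2 fold changes of the same sign. Below the filter the accessions of *Pde4d* did not all share a direction. In the test of relative accession usage none of the 8 members with at least 2 accessions past the filter was called (limma diffSplice, adjusted p = 1 for each, unadjusted p from 0.82 to 0.998), beside 0.758% of 10027 genes called in the table. Since accessions of a gene share reads, a change of usage confined to short parts of a transcript may not be seen in these values.

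Around the members, the pathway was described through lists of 125 genes in 11 groups, the members included. Of these, 68 were tested, 3 rose and 17 fell, which is 29.4% called, beside 24.0% of all genes tested. Of all genes tested, 11.5% were called higher and 12.4% lower. Their median log2 fold change was -0.14. The count rested on few libraries: it was 33 without KD replicate 3, 13 without NC ctrl replicate 2, 7 and 6 without KD replicates 1 and 2, and 1 without NC ctrl replicate 1 or 3. None of the 20 changed its sign under these omissions, and *Elovl3* was the 1 that was called under each of them.

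The A-kinase anchoring proteins place protein kinase A at membranes and organelles, and 10 of 15 of their genes were tested. Of these 10, 50.0% were called, beside 24.0% of all genes tested. *Akap1*, which anchors the kinase at mitochondria, had 8.78, 8.78 and 12.1 RPKM in *Ctcflos* KD and 17.4, 15.7 and 17.8 RPKM in NC ctrl (log2 fold change -0.73, adjusted p = 0.013, limma-trend). *Akap2* and *Akap9* fell by 0.68 and 0.45 on the log2 scale (adjusted p = 0.015 and 0.026), and 1 further gene of the list, *Akap7*, by 0.40 (adjusted p = 0.022). *Akap13* rose, with 7.93, 4.65 and 4.03 RPKM in *Ctcflos* KD and 3.09, 2.84 and 3.07 RPKM in NC ctrl (0.66, adjusted p = 0.045). Of the CREB family and its coactivators, 9 of 12 were tested and 1 was called, or 11.1%, beside 24.0% of all genes tested. It was *Sik2*, a kinase gene of the CRTC coactivators, which fell from 7.84 to 5.35 RPKM (-0.49, adjusted p = 0.047). Of 11 other cAMP effectors, 2 were tested and none passed, nor did either have an unadjusted p under 0.05 by limma-trend. These were *Rap1a* and *Rap1b*, with log2 fold changes of -0.36 (adjusted p = 0.31) and 0.18 (adjusted p = 0.36).

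Of 14 transcripts known to respond to cAMP, 7 were tested and 3 of these were called, all lower, beside 12.4% of all genes tested that were called lower. *Ucp1*, the uncoupling protein of thermogenic fat, had 23.6, 26.1 and 12.4 RPKM in *Ctcflos* KD and 67.0, 27.0 and 57.3 RPKM in NC ctrl (log2 fold change -1.21, adjusted p = 0.048). *Elovl3*, a fatty acid elongase gene, had 40.7, 45.5 and 41.6 RPKM against 78.3, 70.5 and 77.5 RPKM (-0.81, adjusted p = 0.0064). *Ppargc1a*, a coactivator of mitochondrial genes, had 1.5, 1.26 and 2.41 RPKM against 3.55, 2.70 and 2.57 RPKM (-0.55, adjusted p = 0.049). For *Ucp1* KD replicate 2 and NC ctrl replicate 2 lay within 1 RPKM of each other. The other 4 tested, *Fos*, *Per1*, *Crem* and *Rgs2*, were not called, with log2 fold changes from -0.35 to 0.19. The 7 genes below the filter were not called without a filter (limma-trend), and 5 of them, *Nr4a1*, *Nr4a2*, *Sik1*, *Dio2* and *Pde4b*, had every KD library above every control, beside 11.8% of the genes below the filter with any value above 0 (9.01% had every KD library below). *Nr4a1* had 0.749 against 0.517 RPKM, *Nr4a2* 0.180 against 0.081 RPKM, *Sik1* 0.775 against 0.373 RPKM and *Dio2* 0.410 against 0.197 RPKM (adjusted p = 0.27, 0.082, 0.21 and 0.20). The genes of this list respond to other signals as well.

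Of the 4 genes of lipolysis, none was called by limma-trend, and 3 had an unadjusted p under 0.05. *Lipe*, which encodes the hormone-sensitive lipase that protein kinase A phosphorylates, had 43.0, 37.4 and 56.9 RPKM in *Ctcflos* KD and 67.2, 56.0 and 61.9 RPKM in NC ctrl (log2 fold change -0.44, limma-trend, adjusted p = 0.096). *Plin1*, the perilipin of the lipid droplet, had 70.5 against 90.2 RPKM (-0.35, adjusted p = 0.074), *Abhd5* 44.2 against 59.4 RPKM (-0.44, adjusted p = 0.085) and *Pnpla2* 127 against 135 RPKM (-0.12, adjusted p = 0.64). *Adrb3* and *Pde3b* stood at 57.7% and 58.6% of control, *Lipe* and *Abhd5* at 74.1% and 74.4%, and the 7 adipocyte markers between 69.6% for *Adipoq* and 108% for *Cidec*.

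**Figure D5:**
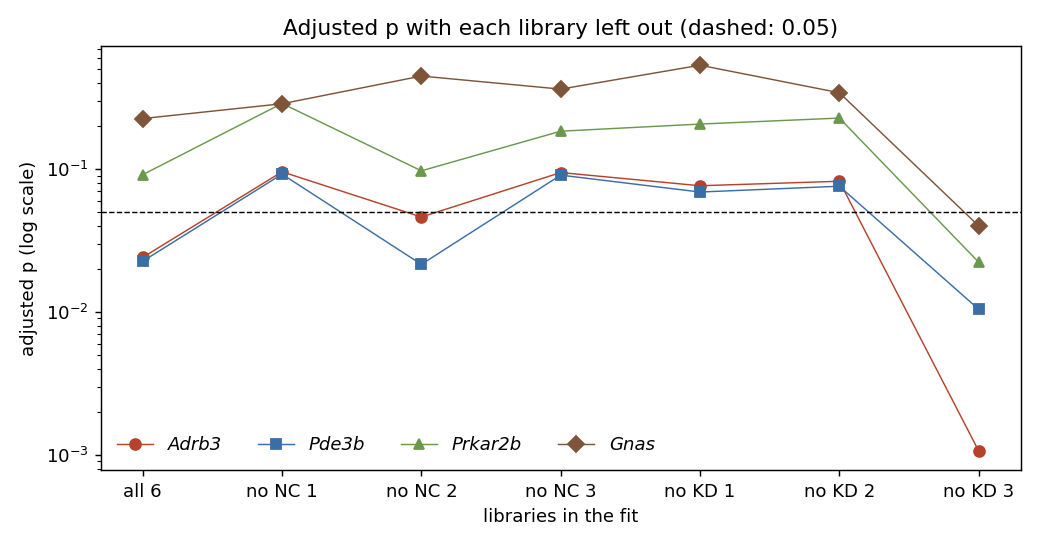
Adjusted p (limma-trend, log axis) of *Adrb3*, *Pde3b*, *Prkar2b* and *Gnas* with all 6 libraries and in fits that omit 1 library each, with a dashed line at 0.05. *Adrb3* and *Pde3b* lie under the line with all libraries, without NC ctrl replicate 2 and without KD replicate 3, and all 4 genes lie under it without KD replicate 3.

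Markers of other cells were read in the same libraries. In the list of macrophages and leucocytes, *Cd68* rose from 1.08 to 3.24 RPKM (log2 fold change 1.05, adjusted p = 0.023), and the summed RPKM of the 4 genes found was 3.32 to 5.44 in *Ctcflos* KD and 0.952 to 2.83 in NC ctrl. *Csf1r*, a macrophage receptor gene, had 1.31, 1.48 and 1.1 RPKM against 0.269, 0.833 and 0.438 RPKM (0.61, adjusted p = 0.066 without a filter, and 0.015 on RefSeq mRNA accessions alone). *Ptprc*, which marks all leucocytes, went the other way at values near 0. It had 0.0022, 0 and 0.0037 RPKM in *Ctcflos* KD and 0.0139, 0.0486 and 0.0354 RPKM in NC ctrl (limma-trend without a filter, adjusted p = 0.12). *Itgam* had 0.020 against 0.018 RPKM, with overlap. The higher sum of this list thus came from *Cd68* and *Csf1r*. Of the fibroblast and preadipocyte markers, 1 of 5 tested was called, or 20.0%, beside 24.0% of all genes tested. It was *Pdgfra*, which fell from 21.8 to 13.1 RPKM (-0.69, limma-trend, adjusted p = 0.010). The sum of the 7 was 295 to 322 RPKM in *Ctcflos* KD and 363 to 418 RPKM in NC ctrl. *Col3a1* was the greater part of it, with 254 against 339 RPKM. The list did not move as a whole. *Pdgfrb*, *Col1a1* and *Dlk1* stood at 115%, 122% and 136% of control, and *Thy1* and *Dpp4* at 94.9% and 40.5%. The endothelial markers summed to 0.647 to 0.922 RPKM in *Ctcflos* KD and 1.07 to 1.35 RPKM in NC ctrl, without overlap. None of these 4 genes reached the filter. *Tek* and *Pecam1*, at 44.6% and 64.7% of control, had every KD library below every control. This held for 9.01% of all genes below the filter with any value above 0. *Cdh5* and *Kdr*, at 68.7% and 89.3% of control, overlapped between the groups. The mural and smooth muscle markers summed to 18.6 to 49.2 and 33.4 to 85.1 RPKM, of which *Acta2* was the 1 gene tested and was not called (log2 fold change -0.79, adjusted p = 0.21). Nerve and glia markers stayed at 0.125 to 0.173 and 0.141 to 0.160 RPKM. The part of these cells in the changes of *Adrb3* and *Pde3b* was not tested.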

How the data were processed

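For the 6 libraries of *Ctcflos* KD and NC ctrl cells, the authors deposited RPKM values in a single file with decimal commas, with lines for RefSeq, Ensembl and GenBank transcripts. How these values were made is not given in the sources used here. Alignment with STAR to GRCm38 is stated for a splice analysis of these libraries, which were prepared with a stranded kit for total RNA. Of 168326 lines, 305 exact repeats were removed and 168021 used. Groups come from the sample labels. Nothing in the labels says that replicates came from separate animals, so that p-values measure the spread between these libraries, which may be technical. Depth was recovered from low values of Ensembl transcripts with a Gencode vM21 length, at least 96.0% of which were whole reads within 0.1 in each library. All intervals cover the spread between libraries.

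Accessions with the same symbol were averaged to a gene value. Genes of mean RPKM of at least 1 were tested with limma-trend on log2(RPKM + 1), a scale that understates changes of low genes, with Benjamini-Hochberg adjustment over all genes tested and a threshold of 0.05. *Ctcflos* and genes below the filter come from a fit without a filter. Accessions were tested in the same way, and their usage with limma diffSplice at a pseudocount of 0.1. Single ratios were compared with two-sided exact permutation tests, which cannot go below p = 0.1. The members and gene lists were chosen with earlier results of these data known, and so were the tests. Named were the members, their listed relatives, the called genes of each list (at most 3 of the largest change in each direction), and member accessions with the highest mean or largest change. A comparison with the genes most like *Adrb3* and some relatives is not reported here. Other genes, such as *Akap7*, *Adcy7*, *Gnai2* and genes named as not called, were chosen after their values were seen. Loci are from Gencode vM21 and promoters from RefSeq. Of the genes tested, 80.5% had a genomic span.

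On simulated data of 11701 genes, limma-trend called 56 of 100 genes changed by 0.75 and 85 of 100 changed by 1.5 on the log2 scale, with 7 false calls. Far fewer genes were changed in the simulation than were called in the real data, so that its adjusted threshold was stricter. These shares are therefore not the sensitivity of the real test. At an unadjusted p under 0.05, 95 and 98 of 100 were found (limma-trend). Alternatives were a pseudocount of 0.1, no filter, a filter at 0.5 RPKM, median-of-ratios scaling, RefSeq mRNA accessions alone, the accession with the highest mean, the median over accessions, the replicate number as a block, a weight per library, and leaving out each library in turn. Tests were run in limma 3.58.1 under R 4.3.3, and tables and plots were made with pandas 2.3.3, numpy 2.4.6 and matplotlib 3.10.9 under Python 3.11.15.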

Additional observations from a re-analysis of the deposited data

How the results depend on the processing

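The deviations of same-numbered KD and control libraries from their group means had correlations over 11701 genes of 0.29, -0.29 and -0.42. With 3 libraries per group these values cannot show whether same-numbered libraries shared a batch. Both replicate 3 libraries had the lowest depth, with 60.8 mio mapped reads in KD and 62.9 mio in NC ctrl. The other libraries had 75.1 to 79.2 mio. With the replicate number as a block, 12 of the 20 pathway genes were called and 2 members, *Adrb3* (adjusted p = 0.036) and *Pde3b* (0.040), while *Ctcflos* had a log2 fold change of -0.66 (adjusted p = 0.11). Without a filter on low values 0 members and 10 pathway genes were called (limma-trend), with -0.76 for *Adrb3* (adjusted p = 0.066) and -0.73 for *Pde3b* (0.059). In that fit more genes entered the adjustment, and the unadjusted p was higher as well. By limma-trend it was 0.0050 against 0.0034 with the filter for *Adrb3*, and 0.0039 against 0.0030 for *Pde3b*. With library weights 32 pathway genes were called. On the accession with the highest mean, the ratio of *Pde3b* to *Pde4d* was 0.035 higher in *Ctcflos* KD, against 7.11 lower over all accessions, and the cause was not tested.

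Leaving out each library in turn gave 0 to 4 members, 1 to 33 pathway genes and 1 to 42 member accessions called. The log2 fold change ranged from -0.97 to -0.64 for *Adrb3*, from -0.89 to -0.58 for *Pde3b* and from -0.72 to -0.63 for *Ctcflos*, for which the adjusted p rose above 0.05 without any library but KD replicate 3. In the fit without a filter, 0 of 38335 genes were called by limma-trend in 5 of these 6 omissions, with 6518 to 8406 at an unadjusted p under 0.05, so that calls of genes below 1 RPKM rest on all 6 libraries or on KD replicates 1 and 2. The log2 fold change of *Adcy3*, -0.003 in the report, turned to 0.028 with RefSeq accessions alone, 0.031 with the highest accession, 0.022 with the median over accessions and 0.023 with library weights, and ranged from -0.097 to 0.11 under the 6 omissions. That of *Prkaca* ranged from -0.24 to 0.05, with 0.053 without KD replicate 2. The other alternatives changed no member call of *Adrb3* or *Pde3b*.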
